A study of Mus musculus with 16 samples.

Results

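Cultures that overexpressed human HIF-1α were compared with cultures given a control short hairpin RNA (shRNA). Samples were taken by their labels: 4 arrays whose titles name HIF1α_Overexpression and 6 whose titles name Control_shRNA, out of 16 arrays in all. The other 6 arrays came from cultures with an shRNA against Hif1a. All cultures were of dorsal root ganglia, which hold the cell bodies of sensory neurons, from CD-1 mice at embryonic day 13. Lentivirus went on after 4 days in culture, axons were severed with a blade on day 7, and RNA was collected 3 h or 12 h after the cut. Uninjured cultures were collected without a cut. The control groups held 2 arrays at each of the 3 times. The overexpression groups held 1 uninjured array, 2 arrays at 3 h and 1 array at 12 h. Human HIF-1α was carried by the FUGW vector and the control hairpin by a MISSION construct, and no empty FUGW group was among the samples. The comparison therefore differs in vector as well as in HIF-1α, and construct cannot be told apart from a batch of culture or virus. The labels do not say that replicates were separate cultures or animals, and p-values therefore reflect the spread between arrays, which may be technical.

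HIF-1α is a transcription factor subunit whose level depends on oxygen. In normal oxygen it is hydroxylated and degraded through the von Hippel-Lindau ligase. When stable, it pairs with ARNT, binds short DNA elements and raises genes of glucose uptake, glycolysis, vessel growth and pH control. In peripheral neurons the wider injury response includes neuropeptides, immediate early genes and changes in the axonal cytoskeleton. The question asked here was which genes outside the well-known HIF targets differed, and how steady each difference was over the 3 times.

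RNA was measured on Illumina bead arrays, and 11151 genes passed a filter for dim probes. Each level below is the deposited intensity, a linear brightness after background subtraction, so values near or below 0 mean that the probe was not above background. Between 47.8% and 47.9% of probes were above an intensity of 16 on each array, so little can be read of dim genes. Differences are overexpression minus control on the log2 scale, taken at each time and then averaged over the 3 times. An offset of 50 added before the log makes these differences smaller than the true ratio for dim genes. A gene was called at an adjusted p under 0.05 (limma, Benjamini-Hochberg over all 11151 genes). In the average, 55.3% of genes were called, 25.8% higher and 29.4% lower. Called differences of at least 2-fold made up 4.82% of genes on the higher side and 3.46% on the lower side. Of 68 tested genes on a list of classical HIF targets, 49 rose and 3 fell, and 32 of the rises were at least 2-fold. The 537 and 386 genes past 2-fold thus held 505 rises and 386 falls outside that list, and these are the subject of what follows.

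The mouse Hif1a probe read -5.20, 2.64, 0.229 and 5.22 on the overexpression arrays and 21.3 to 42.7 (median 27.1) on the control arrays. The groups did not overlap, and Hif1a was lower by at least 1.82-fold, with a log2 difference of -0.53 (SE 0.0791, adjusted p = 8.49e-06, limma). By time the difference was -0.67 uninjured, -0.54 at 3 h and -0.36 at 12 h, where it was not called. In the knockdown cultures the average log2 difference of Hif1a from control was -0.59. This probe is for the mouse gene, and whether it reads the human cDNA is not known, so it does not check the overexpression label.

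Among the 15 largest rises outside the classical targets, 6 were in genes with no control array above the cutoff of 16, and all 6 control arrays were above it in Otop1, Cyp2s1 and Cartpt. Espn, an actin-bundling protein known from hair cell stereocilia, read 7714 uninjured, 6321 and 6955 at 3 h and 7448 at 12 h with overexpression. In control its lowest, median and highest values were -3.56, 5.87 and 18.9. Every overexpression array stood far above every control array, and the log2 difference was 6.67 (SE 0.0808, adjusted p = 6.31e-23, limma). Espn had 4 probes after filtering. The mean log2 level of ILMN_3107059 was 12.8 with overexpression and 6.17 in control, and that of ILMN_2731578 was 10.1 and 5.94. The other 2 probes stayed near background in both groups, with differences of -0.06 and 0.04.

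Htr5b, a serotonin receptor, read 3499, 2931, 3264 and 3285 with overexpression and -8.78 to 11.3 (median 1.99) in control. It was at least 202-fold higher (log2 difference 5.64, adjusted p = 1.10e-21, limma), where "at least" sets the control group to that cutoff. Plekha2, which binds a phosphoinositide through its PH domain, read 2585, 2467, 2526 and 2986 against 3.70 to 22.4 (median 8.36), a log2 difference of 5.15. Dermokine (Dmkn), a secreted protein known from epidermis, read 2342, 1868, 1874 and 2497 against -9.56 to 8.23 (median -1.86) and was at least 133-fold higher. For Dmkn, 2 probes differed by 5.07 and 4.84 and the third differed by -0.10.

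Prok2, a secreted ligand of G protein-coupled receptors, read 2150, 1907, 1868 and 2057 with overexpression and -3.33 to 8.66 (median -0.72) in control, at least 125-fold higher. Rgcc, a regulator of the cell cycle, read 2084, 1569, 1993 and 2011 against -6.23 to 5.42 (median -2.36), at least 119-fold higher. Npas1, a transcription factor of the same bHLH-PAS family as HIF-1α, read 1114, 1043, 1313 and 1364 against -4.82 to 4.01 (median -0.78), at least 75.1-fold higher. In each of these 3 genes the 4 overexpression arrays lay close together and no control array was above background.

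In other rises some or all control arrays were above 16. Otop1, a proton channel, read 2116, 1922, 2196 and 2349 with overexpression and 41.3 to 84.3 (median 58.1) in control, a log2 difference of 4.14 (SE 0.0801). The cytochrome P450 gene Cyp2s1 rose by 3.99, and its control arrays read 25.0 to 63.0. Slc35f3, a transporter gene, rose by 4.28, and Rasl12, a Ras-like GTPase gene, by 4.20. Pcgf5, a subunit of a Polycomb repressive complex, read 1184, 987, 1064 and 1168 against -1.15 to 25.7 (median 8.66), a log2 difference of 3.97. Sertm1 rose by 4.41. Over the 15 largest rises the adjusted p was at most 4.33e-19 (limma), and the groups did not overlap in any of the 15. All 537 genes that rose at least 2-fold had groups that did not overlap, as had 75.9% of all genes called higher, so this does not set the 15 apart. Among all 2881 genes called higher, 158 had no control array above 16 and all 4 overexpression arrays above it, and 69 of these were at least 2-fold higher. The filter kept a probe above 16 on any 2 of the 16 arrays. A gene with no control array above 16 could therefore pass only through overexpression or knockdown arrays, so these counts are a description.

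**Figure D1:**
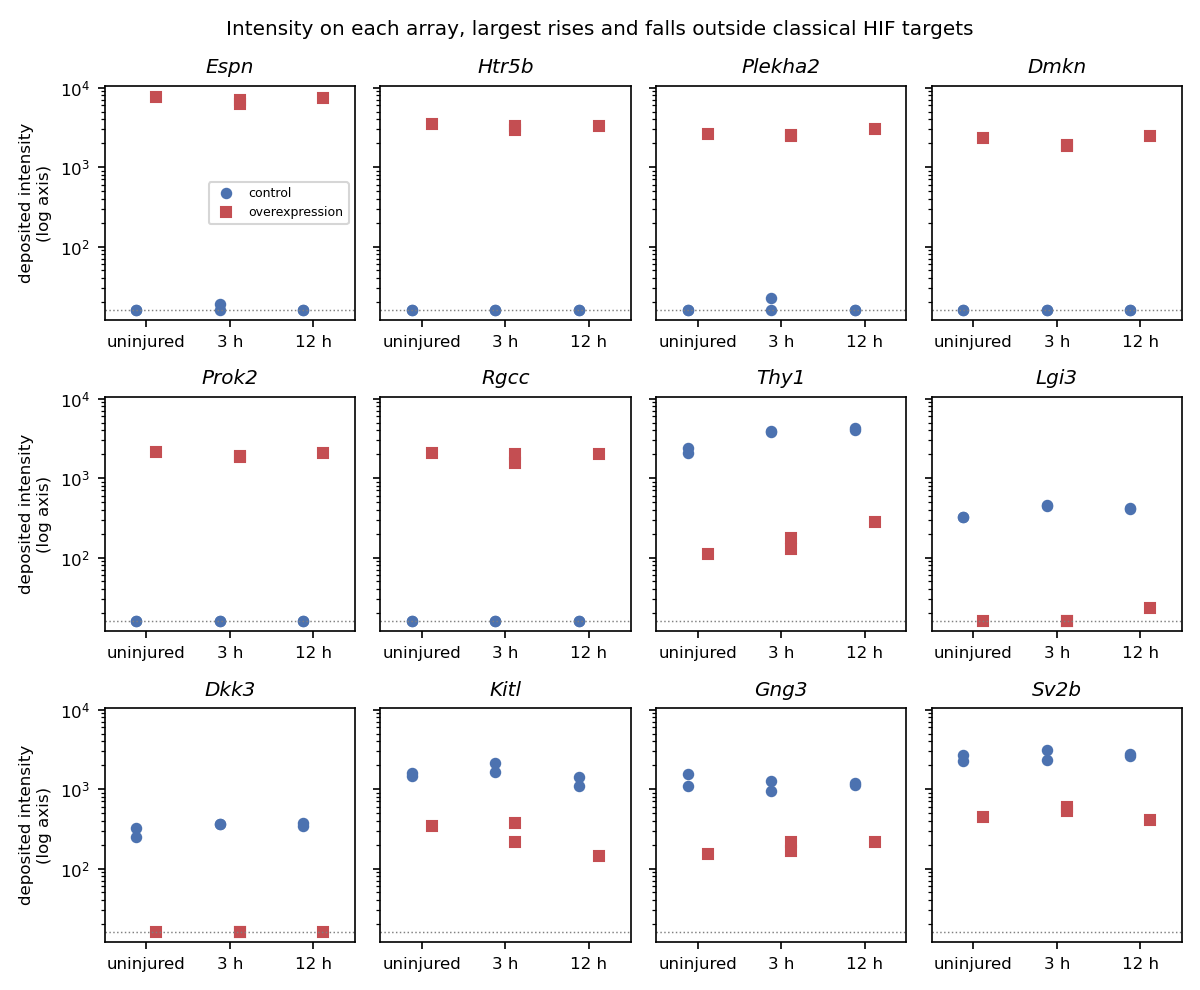
Deposited intensity (log axis) of 12 genes on each array at 3 times, with control arrays as circles and overexpression arrays as squares. Values under 16 are drawn on the dotted line at 16, where most control arrays lie for the 6 rises from Espn to Rgcc, while in the 6 falls from Thy1 to Sv2b every overexpression array lies below every control array.

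The largest falls were in genes that control cultures expressed well. The ranking favors such genes, since with the offset of 50 a gene that is dim in control has little room to fall. Thy1, a surface glycoprotein of neurons, read 111 uninjured, 176 and 129 at 3 h and 283 at 12 h with overexpression. In control it read 2076 to 4255 (median 3900). The groups did not overlap, and the log2 difference was -3.82 (SE 0.0874, adjusted p = 1.00e-18, limma). Its control arrays were lowest when uninjured, at 2076 and 2386, and 3825 to 4255 after the cut.

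Secreted proteins were among the falls. Lgi3, a secreted protein with leucine-rich repeats, read 9.16, 2.06, 1.34 and 22.9 against 323 to 460 (median 413), a log2 difference of -2.57. Dkk3, a secreted protein of the Dickkopf family, read 4.32, 8.94, 3.81 and 10.8 against 247 to 379 (median 350) and was at least 20.8-fold lower. Kitl, the stem cell factor that activates the receptor Kit, read 345, 378, 215 and 143 against 1084 to 2127 (median 1540), a log2 difference of -2.35 (SE 0.115). Mmp2, a gelatinase that cuts extracellular matrix, fell by 2.08. For all 4 genes every overexpression array lay below every control array, as in 384 of all 386 falls of at least 2-fold.

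The other large falls were of mixed function. Gng3, a neuronal G protein gamma subunit, read 154, 166, 214 and 214 with overexpression and 955 to 1544 (median 1166) in control, a log2 difference of -2.32. Sv2b, a synaptic vesicle glycoprotein, read 447, 599, 528 and 413 against 2286 to 3097 (median 2649), also -2.32. Htr3b, a subunit of the serotonin-gated channel, fell by 2.06, Npy4r, a receptor of the neuropeptide Y family, by 2.07, and Plch2, a phospholipase C, by 2.05. Nrep, a gene named for neuronal regeneration, was brighter in both groups than these: it read 922 to 1681 with overexpression and 4660 to 6211 in control, and it fell by 2.15. Sub1, a transcriptional coactivator, fell by 2.23, Rassf4 and Mgst1 by 2.15 and 2.10, and Pitpna, a phosphatidylinositol transfer protein, by 2.06. Across the 15 largest falls the adjusted p was at most 1.87e-12 (limma), and in Dkk3 alone no overexpression array was above 16.

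The promoter sequence of some of these genes is shown because HIF-1α with ARNT binds a core written ACGTG or GCGTG. Sequences came from RefSeq promoters on GRCm38.p6, a 300-base window from 250 bases before to 50 bases after each annotated start. Of the 11151 genes, 8517 matched a promoter, and of these 65.6% held either core on either strand. The share was 91.7% (22 of 24) among classical targets called at least 2-fold higher. It was 69.7% (278 of 399) among the other genes at least 2-fold higher, 64.8% (190 of 293) among those at least 2-fold lower and 61.2% among genes not called. Of the 15 largest rises 12 had a promoter and 8 held a core, and of the 15 largest falls 10 had one and 5 held a core. Of all 27025 genes in the promoter table, tested or not, 46.7% held a core. A match describes letters only and is not a binding site. The 250 bases before the start follow, 5′ to 3′ in the direction of the gene, for 4 rises with matches and for Sub1, a fall with matches. Capitals mark each match, and a core on the opposite strand reads CACGT or CACGC. Prok2 had 8 matches, Otop1 2, Rgcc 1, Pcgf5 6 at the third of its annotated starts, and Sub1 4.
Prok2, chr6:99726393-99726642, - strand: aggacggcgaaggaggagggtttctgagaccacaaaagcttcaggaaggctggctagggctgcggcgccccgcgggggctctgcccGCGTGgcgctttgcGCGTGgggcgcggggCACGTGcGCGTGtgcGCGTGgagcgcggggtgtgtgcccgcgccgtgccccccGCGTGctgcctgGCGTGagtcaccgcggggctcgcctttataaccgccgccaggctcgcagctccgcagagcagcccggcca
Otop1, chr5:38277154-38277403, + strand: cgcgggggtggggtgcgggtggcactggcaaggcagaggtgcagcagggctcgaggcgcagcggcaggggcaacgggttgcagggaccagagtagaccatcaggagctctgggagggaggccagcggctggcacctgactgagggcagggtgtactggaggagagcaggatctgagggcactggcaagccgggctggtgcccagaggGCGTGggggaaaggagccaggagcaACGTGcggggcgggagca
Rgcc, chr14:79301636-79301885, - strand: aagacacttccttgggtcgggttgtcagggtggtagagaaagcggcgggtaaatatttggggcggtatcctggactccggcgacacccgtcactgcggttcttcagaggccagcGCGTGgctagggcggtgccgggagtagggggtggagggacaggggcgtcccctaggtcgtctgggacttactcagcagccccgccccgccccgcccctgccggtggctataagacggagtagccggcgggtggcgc
Pcgf5, chr19:36409498-36409747, + strand: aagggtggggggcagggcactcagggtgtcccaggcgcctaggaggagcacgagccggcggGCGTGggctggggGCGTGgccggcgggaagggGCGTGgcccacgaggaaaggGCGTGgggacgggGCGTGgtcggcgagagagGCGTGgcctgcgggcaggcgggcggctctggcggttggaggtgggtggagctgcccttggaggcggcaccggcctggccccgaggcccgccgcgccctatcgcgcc
Sub1, chr15:11996008-11996257, - strand: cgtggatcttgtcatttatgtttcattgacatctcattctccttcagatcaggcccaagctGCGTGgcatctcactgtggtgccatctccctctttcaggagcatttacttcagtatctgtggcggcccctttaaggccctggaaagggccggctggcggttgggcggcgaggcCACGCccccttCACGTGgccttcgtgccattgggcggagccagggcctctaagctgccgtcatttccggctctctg

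The differences were then read at each time on its own. No array is shared between times, but the arrays of one construct may share culture and virus. In uninjured cultures 16.5% of genes were called higher and 19.2% lower. At 3 h the shares were 18.5% and 20.3%, and at 12 h 16.7% and 17.8%. Called in the same direction at all 3 times were 12.0% of genes on the higher side and 12.2% on the lower side.

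Being called at all 3 times went with the size of the difference. A single time has fewer arrays than the average, so a small difference is less easily called there. Outside the classical targets, 505 genes were at least 2-fold higher in the average, and all 505 were called higher at each of the 3 times. Of the 386 that were at least 2-fold lower, 385 were called lower at each time. Among genes that differed by 0.5 to 1 on the log2 scale, 691 of 812 rises (85.1%) and 853 of 1060 falls (80.5%) were called at all 3 times. Below 0.5, this held for 102 of 1515 rises (6.73%) and 123 of 1831 falls (6.72%). A sign that differed between times was seen in 69 of these small rises and 68 of these small falls, and in none of the larger ones.

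Large differences also kept most of their size in relative terms. For each gene the smallest of its 3 differences was divided by the largest. The ratio had a median of 0.836 over the 505 rises, and 313 of them (62.0%) were at 80% or more. Over the 386 falls the median was 0.814, and 215 (55.7%) were at 80% or more. The median spread between the largest and the smallest difference was 0.285 for rises and 0.274 for falls on the log2 scale. For called differences under 0.5 it was 0.238 and 0.249, so large differences were not steadier on the log2 scale itself. By time, the median log2 difference of the 505 rises was 1.55 uninjured, 1.41 at 3 h and 1.48 at 12 h, and that of the 386 falls was -1.34, -1.24 and -1.29. These medians are a description, since the average that chose the genes holds all 3 times.

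A reading at times that did not choose the genes gave similar counts. Genes past 2-fold and called in uninjured cultures alone, outside the classical targets, numbered 558 rises and 460 falls. Of the 558 rises, 556 were called higher at 3 h and 555 at 12 h, with a median of 0.902 and 0.936 of the uninjured difference. Of the 460 falls, 455 were called lower at 3 h and 453 at 12 h, with medians of 0.865 and 0.902. Chosen at 3 h, 477 rises and 362 falls were called again in 477 and 360 cases in uninjured cultures and in 476 and 362 cases at 12 h. Chosen at 12 h, 526 rises and 416 falls were called again in 523 and 408 cases in uninjured cultures and in 526 and 412 cases at 3 h. No gene of any of these sets had the opposite sign at another time. Across all 11151 genes the differences at 2 times correlated with a Pearson r of 0.930 (uninjured and 3 h), 0.927 (uninjured and 12 h) and 0.941 (3 h and 12 h). Spearman rho was 0.833, 0.838 and 0.855. The points are genes, which are not independent of each other, and all times share the constructs, so these values are descriptive.

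**Figure D2:**
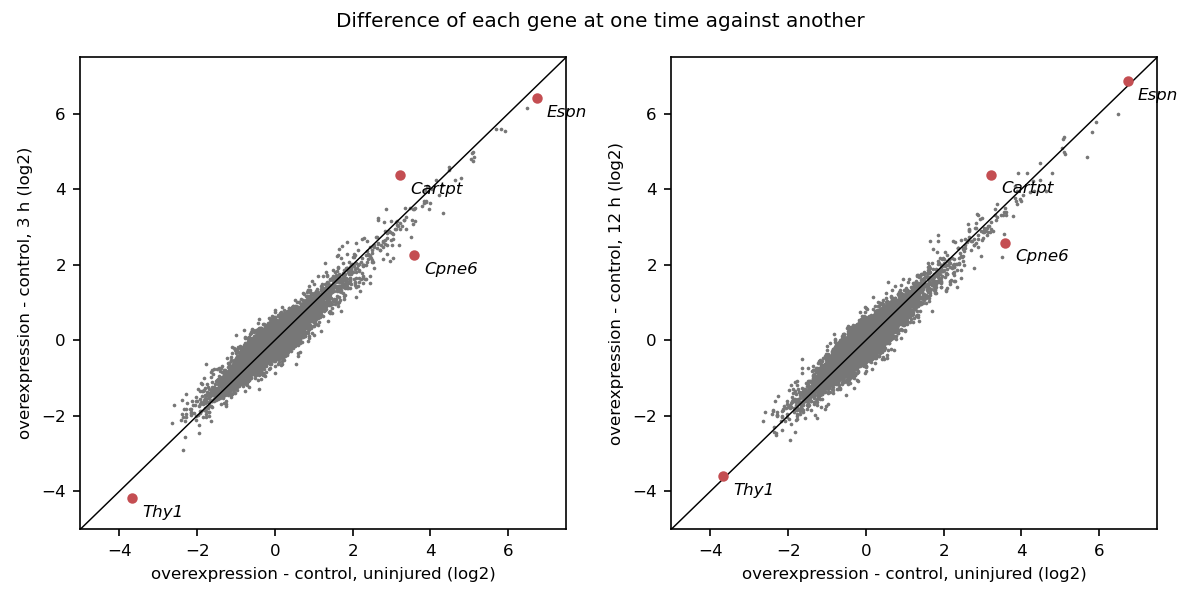
Log2 difference of each of 11151 genes (overexpression minus control) at 3 h (left) and 12 h (right) against the difference in uninjured cultures, with a line where both are equal. Most genes lie along the line (Pearson r 0.930 and 0.927), and Cartpt and Cpne6 lie off it.

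The 15 largest rises differed in how steady they were. Rasl12 had the narrowest spread, 0.18, with differences of 4.29, 4.11 and 4.21, followed by Pcgf5, H2-Bl and Prok2. Pcgf5 was higher by 4.05, 4.01 and 3.85 uninjured, at 3 h and at 12 h, and Prok2 by 5.12, 4.85 and 4.92. Espn was higher by 6.73, 6.41 and 6.86. The differences of Otop1 were 3.92, 4.09 and 4.42, and those of Slc35f3 4.62, 4.25 and 3.95. The spread between times was under 0.5 for 12 of the 15, with a median of 0.350, and the widest was 1.17, in Cartpt. Among the 15 largest falls it was under 0.5 for 9, with a median of 0.463. Htr3b had the narrowest, 0.08, with differences of -2.03, -2.11 and -2.03, and Npy4r the widest, 0.88, with -2.59, -1.71 and -1.91. For Thy1 the differences were -3.69, -4.18 and -3.59, and for Kitl -1.96, -2.45 and -2.65.

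**Figure D3:**
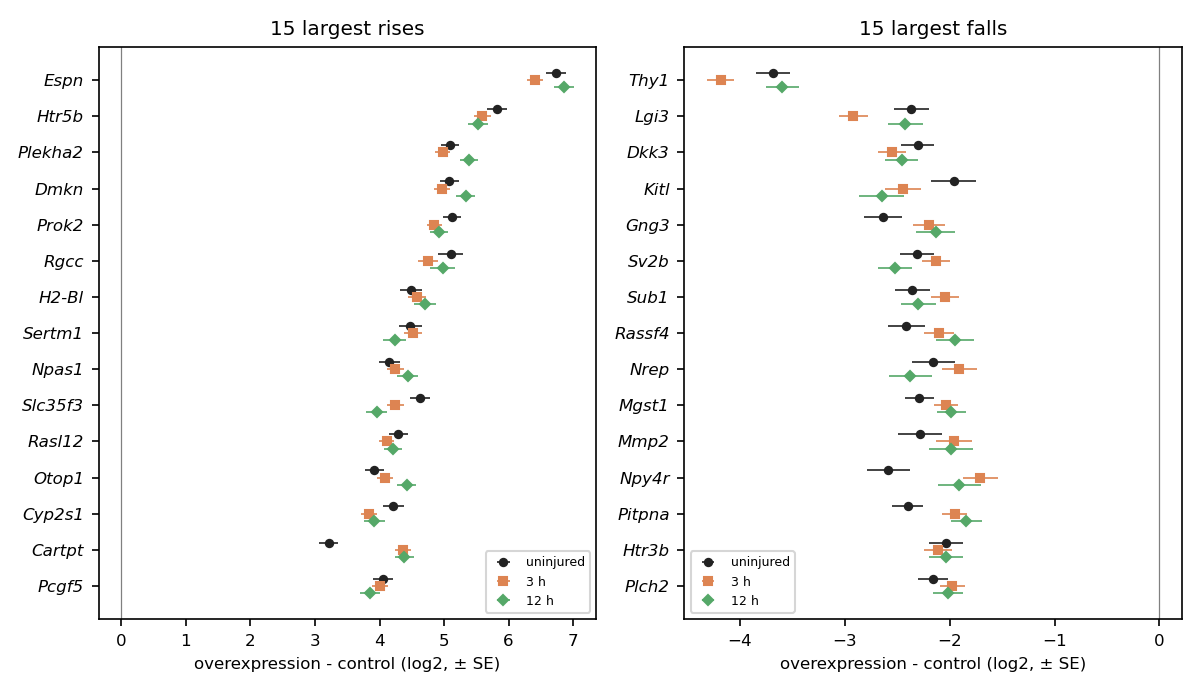
Log2 difference (overexpression minus control, with the standard error as bars) of the 15 largest rises (left) and the 15 largest falls (right) outside the classical HIF targets, at each of 3 times. The 3 points of a gene lie within 0.5 of each other for 12 rises and 9 falls, and Cartpt has the widest spread, 1.17.

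The steadiest large differences belonged to other genes. Ccng1, a cyclin induced by p53, read 8922, 8793, 8566 and 9130 with overexpression and 2503 to 2713 (median 2594) in control, with log2 differences of 1.76, 1.74 and 1.74. Epop, a partner of a Polycomb complex, rose by 2.55, 2.51 and 2.52, and Cavin3, a coat protein of caveolae, by 2.09, 2.06 and 2.09. The cell adhesion molecule Ncam1 rose by 1.63, 1.65 and 1.64, although its control level ran from 315 to 605. Rab24, a small GTPase, rose by 1.60, 1.59 and 1.62, and Dennd2c by 1.76, 1.78 and 1.76. Among falls, Camkv, a kinase-like protein of vesicles, read 327, 365, 378 and 350 against 1021 to 1369 (median 1111), with differences of -1.57, -1.56 and -1.56. The tetraspanin Cd9 fell by 1.83, 1.85 and 1.85. Nutf2, a nuclear import factor, fell by 1.69, 1.64 and 1.65, and Fah, an enzyme of tyrosine breakdown, by 1.15, 1.12 and 1.13. The differences of Eepd1 were -1.25, -1.28 and -1.26, and those of the adhesion molecule Nectin2 -1.55, -1.50 and -1.50. These 12 genes were chosen for their small spread, so the spread itself is a description.

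Whether a difference changed with injury was tested as an interaction. Limma's F test over both injury times called 0.00% of genes, and 644 (5.78%) had an unadjusted p under 0.05. The difference at 3 h set against that in uninjured cultures called 2 genes, 0.0179%, and 782 (7.01%) had an unadjusted p under 0.05. At 12 h the test called 0.00%, with 627 (5.62%) at an unadjusted p under 0.05 and a lowest adjusted p of 0.152. The median SE of such a change was 0.203 at 3 h and 0.223 at 12 h, so the median 95% interval reached 0.424 and 0.464 to each side on the log2 scale. These intervals are not adjusted for the number of genes tested, so a call needed a larger change than that. With deposited values below 16 set to 16, the F test called 67 genes. Without control uninjured replicate 2 it called 2 genes.

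Cartpt, the precursor of CART peptides, read 1186 uninjured, 2089 and 2228 at 3 h and 2226 at 12 h with overexpression. In control it read 74.6 and 62.2 uninjured and 35.3 to 47.5 after the cut. Its difference was 3.21 uninjured, 4.37 at 3 h and 4.38 at 12 h, larger after injury by 1.15 at 3 h (SE 0.187, adjusted p = 0.0425, limma) and by 1.17 at 12 h (adjusted p = 0.152). Cpne6, a calcium-dependent membrane-binding protein of neurons, read 9802 uninjured, 5654 and 6945 at 3 h and 7563 at 12 h. Its control arrays read 644 and 906 uninjured and 1194 to 1287 after the cut. The difference was 3.57, 2.26 and 2.58, smaller at 3 h by a log2 change of -1.31 (SE 0.220, adjusted p = 0.0425, limma) and at 12 h by -0.99 (adjusted p = 0.684). In both genes the uninjured difference rests on 1 overexpression array, and neither passed the F test (adjusted p = 0.0750 and 0.140).

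Gene lists for the tissue were then counted in the average, beside 25.8% of all tested genes higher, 29.4% lower and a median of -0.02. Neuropeptides and proteins of their granules stood at 21 risen, 2 fallen and 6 not called of 29, with a median of 0.47, and 13 were called higher at all 3 times. Without overexpression 12 h replicate 1 the count of falls was 1. Galanin (Gal), a peptide raised in injured sensory neurons, read 5197, 4834, 6915 and 4966 with overexpression and 395 to 707 (median 491) in control, a log2 difference of 3.23 (SE 0.118, adjusted p = 2.56e-15, limma). Vip, vasoactive intestinal peptide, read 680, 365, 612 and 524 and was not above 16 on any control array, at least 33.2-fold higher. Neurotensin (Nts) read 399, 242, 520 and 409 and was at least 23.6-fold higher, again from control arrays below 16. Prodynorphin (Pdyn) rose by 1.93, the urotensin-related gene Uts2b by 1.92, the granule protein Scg2 by 1.82 and Adcyap1, the precursor of PACAP, by 1.08. Npff fell by 0.71 and Calca, the precursor of CGRP, by 0.25, while its relative Calcb rose by 0.77.

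Growth factors and other secreted ligands moved both ways, with 15 risen and 8 fallen of 35 (median 0.16). Beside Prok2, amphiregulin (Areg), a ligand of the EGF receptor, read 884, 670, 700 and 695 against 34.2 to 75.7 (median 58.0), a log2 difference of 2.74. Tgfb2 fell by 1.58. Of 32 regulators of WNT and BMP signaling 9 rose and 13 fell (median -0.15). Id1, a transcriptional inhibitor induced by BMP, rose by 2.69, with 670 uninjured, 231 and 288 at 3 h and 458 at 12 h, and its differences were 3.03, 2.17 and 2.87 (adjusted p of the F test = 0.598, limma). The follistatin-like gene Fstl1 fell by 1.39 and the WNT agonist Rspo1 by 1.20. With values set to at least 16, the count of falls in that list was 8.

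Receptors and signaling proteins were similarly divided. Of 53 G protein-coupled receptors 18 rose and 13 fell (median 0.10), and the count of rises was 11 when probes had to be above 16 on at least 8 arrays. The thrombin-family receptor F2rl2 read 972, 1335, 1496 and 1358 against 141 to 182 (median 149), a log2 difference of 2.54. The adenosine receptor Adora2b, not above 16 in control, was at least 13.7-fold higher, and the adrenergic receptor Adra2a rose by 1.93. Of 39 receptors for neurotrophic and growth factors 12 rose and 10 fell. Ngfr, the low-affinity neurotrophin receptor, read 7563, 7519, 7233 and 8545 against 16801 to 19822 (median 18451), a log2 difference of -1.22, and Ntrk2, the receptor of BDNF, was at least 3.68-fold higher. Of 37 G protein subunits and RGS proteins 10 rose and 16 fell (median -0.17), with Gng8 lower by a log2 difference of -1.90 and Gng4 higher by 1.55. A list of MAP kinase feedback genes, which also holds Ras-association genes and a galectin, had 10 rises and 12 falls of 28 tested. The galectin Lgals3 had the largest difference, 2.91, and the Ras-association genes Rassf5 and Rassf1 differed by -1.39 and 1.49.

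Immediate early genes stood at 9 risen and 3 fallen of 16 (median 0.51), and 8 of the 9 were called higher at all 3 times. Ier3 read 12246, 11908, 11480 and 13245 with overexpression and 810 to 1830 (median 1328) in control, a log2 difference of 3.15. Its difference was 3.55 uninjured, 3.08 at 3 h and 2.81 at 12 h. Junb rose by 2.73 and Egr1 by 2.34, and Egr4 was at least 14.8-fold higher. Klf6, which belongs to the same list, fell by 0.82. Targets of p53 had 16 rises and 3 falls of 24 (median 0.62), with 13 rises at all 3 times. Phlda3, an inhibitor of Akt, read 1831, 2129, 2083 and 2130 against 51.3 to 115 (median 81.5), and the cell cycle inhibitor Cdkn1a read 13993, 13409, 13299 and 14395 against 3105 to 4041 (median 3929). Both lay above control on every array, by log2 differences of 3.84 and 1.90. Rrm2b, a subunit of ribonucleotide reductase, fell by 1.04.

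**Figure D4:**
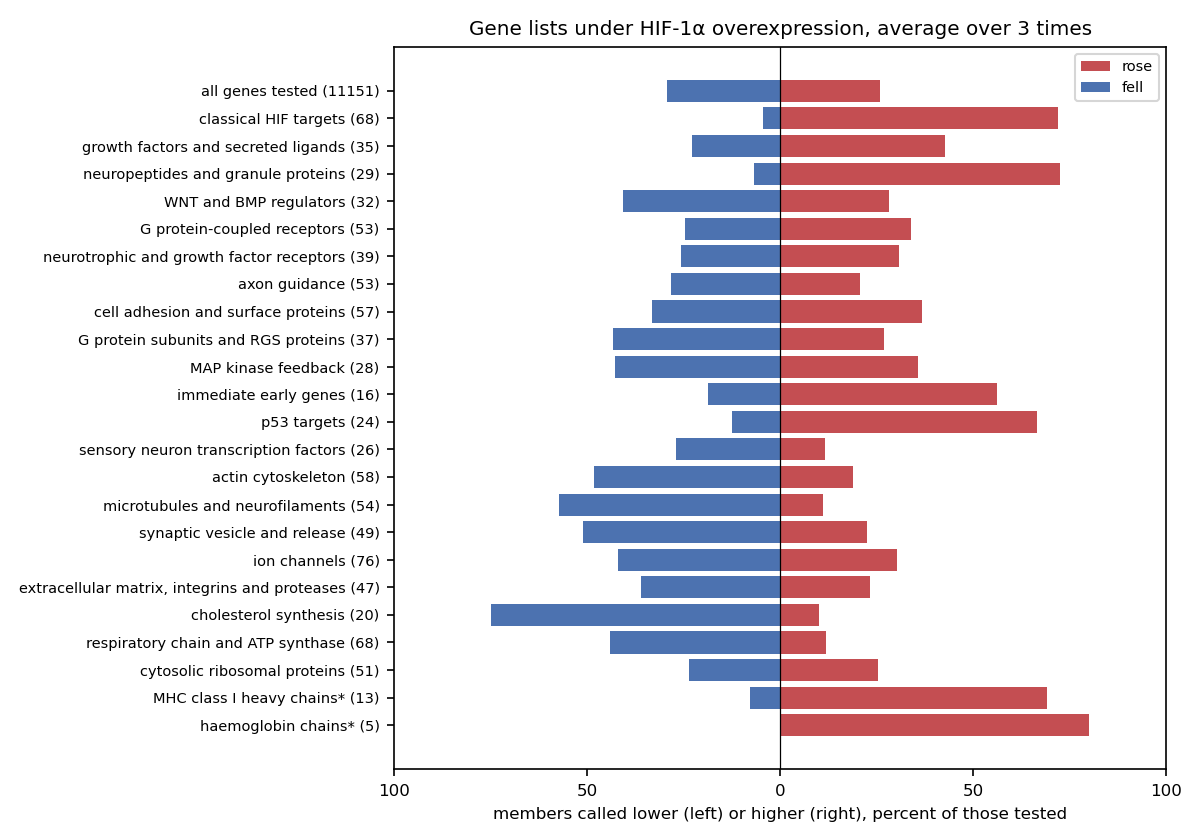
Share of tested members of each gene list called higher (right) or lower (left) in the average over 3 times, in percent, with the number tested in brackets and all tested genes in the top row. Neuropeptides and p53 targets lie mostly to the right and cholesterol synthesis and microtubule genes mostly to the left, and a star marks a list added after the values were seen.

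Genes of the axonal cytoskeleton were mostly lower. Of 54 genes of microtubules and neurofilaments 31 fell, 6 rose and 17 were not called (median -0.36), and 22 falls were called at all 3 times. Stmn2, a growth cone protein that binds tubulin, read 7309, 9833, 8823 and 9852 with overexpression and 23125 to 29174 (median 24987) in control, a log2 difference of -1.54 (SE 0.0829). Dcx, a microtubule-binding protein of young neurons, read 920, 937, 950 and 852 against 2898 to 4021 (median 3084), -1.79. Mapre2, a protein of growing microtubule ends, fell by 1.80, Map1b by 1.35, Stmn1 by 1.33 and peripherin (Prph) by 1.30. A pair of members went far in the other direction. Tubb6, a beta tubulin, read 787, 663, 840 and 637 against 0.804 to 18.1 (median 4.23), a log2 difference of 3.44, and the axonal motor Kif1a rose by 1.78 with differences of 1.80, 1.76 and 1.77. Of 58 actin genes 28 fell and 11 rose (median -0.14). Beside Espn, the risers included the tropomyosins Tpm2, at least 28.8-fold higher, Tpm3 (1.78) and Tpm4 (1.51).

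Markers of cell types were read beside these results, and they did not all go in the same direction. The summed intensity of 15 sensory neuron markers was 92138 to 100056 on the control arrays and 65536 to 71732 on the overexpression arrays. Much of that drop was in Stmn2 (mean 25690 in control and 8954 with overexpression) and Prph (9512 and 3824). The median log2 difference of the list was -0.25. Of the 15, 9 fell and 3 rose, and Trpv1 was not above 16 on any overexpression array. The ganglion identity gene Isl1 rose by 0.88 and the ATP-gated channel P2rx3 by 0.86, while Stmn2 and Prph, which are in this list too, fell. The sum of 7 Schwann cell and satellite glia markers was 18143 to 21200 in control and 9051 to 10344 with overexpression, most of it Ngfr, which neurons also express. In that list Pmp22 rose by 1.58, Dhh was at least 4.91-fold higher and Mbp fell by 0.83, although 1 of 3 Mbp probes differed by 0.38. S100b was not above 16 on any overexpression array. The sum of 7 fibroblast markers was 4290 to 4834 in control and 3360 to 3804 with overexpression, although 3 of the 7 rose and 3 fell. Twist2 had a median of 207 with overexpression and 50.2 in control, and Fbln1 128 and 19.8, while Dcn had 7.63 and 49.1. The sums of 7 endothelial markers, 2257 to 3216 in control and 2572 to 3271 with overexpression, overlapped. Of 13 listed macrophage markers only 4 were tested. Their sum was 114 to 142 in control and 202 to 293 with overexpression, most of it Aif1, which rose by 0.90. Lyz2 and C1qb were not above 16 on any overexpression array, but they were near 16 in control too, with medians of 16.7 and 14.4. The part of these markers in the results was not tested, and in bulk cultures fewer cells of a type and less RNA per cell cannot be told apart.

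Synaptic and channel genes were more often lower than higher. Of 49 genes of synaptic vesicles and release 25 fell and 11 rose (median -0.20). Beside Sv2b, the complexin Cplx2 fell by 1.69, and its difference was -1.26 uninjured, -1.75 at 3 h and -2.05 at 12 h. Sh3gl2, an endophilin, fell by 1.33, while Stxbp2 and Syt5 rose by 1.63 and 1.37. Of 76 ion channel genes 32 fell and 23 rose (median -0.07). Cacna1h, a T-type calcium channel, read 4238, 3724, 4184 and 4536 against 851 to 1071 (median 972), a log2 difference of 2.07. Htr3a fell by 1.97, and with Htr3b both subunits of the serotonin-gated channel on the list were lower.

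Guidance and adhesion genes had no prevailing direction. Of 53 axon guidance genes 11 rose and 15 fell. The semaphorins Sema5a and Sema3f fell by 1.86 and 1.65, and Slit2 and the netrin receptor Neo1 rose by 1.37 and 1.18. Of 57 adhesion and surface proteins 21 rose and 19 fell. Thy1, Lgi3 and Cd9 were among the falls, and the tetraspanin Cd82 rose by 2.20. Of 47 genes of extracellular matrix, integrins and proteases 11 rose and 17 fell, and the count of rises was 7 without overexpression 3 h replicate 2. Tenascin C (Tnc) read 665, 539, 422 and 614 against 11.3 to 25.3 (median 22.1), a log2 difference of 2.90, while the laminin receptor subunit Itga7 fell by 1.51. Of 26 transcription factors of sensory neurons 3 rose and 7 fell, with Insm1 and Maf lower by log2 differences of -1.74 and -1.40.

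Genes of cholesterol synthesis were mostly lower, and those of the respiratory chain fell more often than they rose. Of 20 genes of cholesterol synthesis and uptake 15 fell and 2 rose (median -0.65), and 13 falls were called at all 3 times. Dhcr7, the enzyme of the last step to cholesterol in one branch, read 199, 292, 197 and 248 against 699 to 941 (median 867), a log2 difference of -1.60 (SE 0.0973). Mvd fell by 1.45, Hsd17b7 by 1.33 and Tm7sf2 by 1.31. The risers were Srebf2, the transcription factor that drives the pathway, by 0.74 and the cyclase Lss by 1.08. Of 68 genes of the respiratory chain and ATP synthase 30 fell and 8 rose (median -0.17), and 5 falls were called at all 3 times. The largest differences in that list were rises: Cox7a1, a muscle-type subunit of cytochrome oxidase, read 541, 555, 659 and 607 against 49.5 to 78.2, a log2 difference of 2.39, and Cox6b2 rose by 1.84. The electron carrier Cycs fell by 0.75 and Uqcr10 by 0.70. Of 51 cytosolic ribosomal proteins 13 rose and 12 fell (median 0.01), and the count of rises was 8 without control uninjured replicate 1, and also 8 without overexpression 12 h replicate 1. Rps15a and Rpl27a fell by 1.54 and 1.38. Ribosomal genes have many pseudogenes, so their probes may read more than 1 copy.

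Further groups were listed after the values had been seen. Of 13 tested class I genes of the major histocompatibility complex (MHC), which present peptides to T cells, 9 rose and 1 fell, and the 9 were called at all 3 times. The fall was not called without control 3 h replicate 1, control uninjured replicate 2 or overexpression uninjured replicate 1. H2-Bl read 1473, 1383, 1460 and 1538 with overexpression and -9.34 to 8.06 (median -2.50) in control, at least 91.4-fold higher. H2-T23 read 1020, 709, 958 and 888 and was at least 55.3-fold higher, H2-K2 read 708, 551, 694 and 581 and was at least 39.4-fold higher, and H2-Q8 rose by 3.76. These genes are close relatives, so different probes may read the same RNA, and they vary in sequence between mice. CD-1 is an outbred stock, and the labels do not tie arrays to embryos, so construct and H2 genotype cannot be told apart. With probes required to be above 16 on at least 8 arrays, the count of rises was 3. Of 5 haemoglobin chains 4 rose. Hbb-y, an embryonic beta chain, read 1731, 2110, 1899 and 921 against 31.8 to 598 (median 326), a log2 difference of 2.23 (SE 0.183). The sum of the haemoglobin chains was 113 to 1112 in control and 1602 to 3553 with overexpression, and its part in other results was not tested.

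The knockdown cultures share the control arrays with this comparison, so their own differences from control are given side by side only. Knockdown against control called 31.3% of all genes higher and 28.3% lower. For the 15 largest rises they ran from -0.15 to 2.35 (median 0.77), with 12 called higher and 3 not called. Cartpt was higher by 2.35 in knockdown and 3.99 in overexpression, Sertm1 by 1.85 and 4.41 and Espn by 1.64 and 6.67. Prok2 differed by -0.08 in knockdown (adjusted p = 0.294), H2-Bl by -0.03 and Otop1 by -0.15. For the 15 largest falls the knockdown differences ran from -3.11 to 2.92, with 3 higher, 8 lower and 4 not called. Mmp2 was higher by 2.92 and Thy1 by 1.81 in knockdown, with falls in overexpression of -2.08 and -3.82. Sub1 had -3.11 and -2.23. Several of the steadiest genes also differed in knockdown: Cavin3 by 2.19 in knockdown and 2.08 in overexpression, and Dennd2c by 1.58 and 1.76. Camkv had -2.16 and -1.56, Cd9 -2.11 and -1.84, and Eepd1 -1.54 and -1.26. Rab24 (-1.03 and 1.60) and Nutf2 (1.01 and -1.66) went in opposite directions. Ncam1, Epop, Fah and Nectin2 differed less in knockdown. Phlda3 was higher in both, by 4.85 in knockdown and 3.84 in overexpression. So were the p53 targets Trp53inp1 (2.52 and 1.91), Cdkn1a (1.83 and 1.90) and Ccng1 (1.20 and 1.75). Of the immediate early genes, Egr1 was higher by 3.18 in knockdown and 2.34 in overexpression. Ier3 (0.90 and 3.15), Junb (0.43 and 2.73) and Egr4 (0.57 and 2.20) rose less in knockdown. Id1 was higher by 2.98 and 2.69.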

How the data were processed

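The members and gene lists were chosen with earlier results of these data known. Total RNA was amplified, biotin-labelled and hybridised to Illumina Mouse Ref-8 bead arrays, and the submitters' processing notes name GenomeStudio without version or settings. The deposited table holds intensity for 25697 probes on 16 arrays (-21.7 to 40784.5, 27.2% below 0), in the form of background-subtracted, quantile-normalized values. A second deposited file has 32 columns whose names match no sample, which were not used, and only its gene symbols were.

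The planned fallback for corrected values was used: normexp with an offset of 50, quantile normalization and log2 in limma 3.58.1 (R 4.3.3). Probes above 16 on at least 2 arrays were kept (15086), and the brightest stood for each of 11151 genes. The cutoff of 16 compares with a background SD of 6.42 estimated from values below 0. One fit of 16 arrays with 9 group means had 7 residual and 13.2 prior degrees of freedom, so groups of 1 array borrow the spread of the others. Genes named were Hif1a, the 15 largest rises and falls with a gene symbol, the 6 steadiest each way, up to 4 called members per list by size, and genes of the interaction test. Other members of the lists were named after their values were seen. The statistics were tested on simulated data. Log2 changes of 0.5 and 1 at all times were recovered in the average for 85% and 100% of the changed genes. For changes of 0.5 and 1 at 3 h only, the F test recovered 3% and 61%, so it misses most changes of 0.5. Changes in uninjured cultures or at 12 h only, where overexpression had 1 array, were not simulated. The median SE of a difference was 0.157 at those times and 0.128 at 3 h, so the 61% holds for 3 h alone.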

Additional observations from a re-analysis of the deposited data

Results flagged for a closer look

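Cartpt and Cpne6 stood out because the difference between overexpression and control itself differed between uninjured cultures and 3 h after the cut. For Cartpt it was larger at 3 h by 1.15 on the log2 scale (SE 0.187, adjusted p = 0.0425, limma with Benjamini-Hochberg), and for Cpne6 it changed by -1.31 (SE 0.220, adjusted p = 0.0425). For both, the uninjured overexpression group was 1 array.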

How the results depend on the processing

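Counts of all genes higher or lower, in the average, at each time and at all 3 times, stayed within 1.5 times of the reported value under each alternative. Counts within lists moved by more in 16 cases: those named with the lists in the report, and otherwise counts of 2 or fewer. In the average, 2528 to 2900 genes were higher and 2850 to 3305 lower when 1 array was left out, and 2609 to 3222 and 2897 to 3334 under the other settings, the highest rise count being with cyclic loess. Counts called at all 3 times ran from 1188 to 1346 (higher) and 1179 to 1392 (lower) with 1 array left out. The count of genes whose difference changed between times (limma's F test, 0 in the report, 644 at an unadjusted p under 0.05) was 67 with values floored at 16, 1 with no filter on dim probes, 2 with a replicate block, and 0 to 2 with 1 array left out. The cause was not tested. Without the lone overexpression array at 12 h or uninjured the average covers 2 times and the F test gives no value. Same-numbered arrays deviated from their group means with correlations of 0.109 to 0.168 among control groups and 0.0787 to 0.132 between control and overexpression. As not every pair passed 0.1, the numbers were not taken to pair samples. With the replicate block 5914 of 6161 called genes kept their call and direction. The fewest, 5262, kept both without the overexpression uninjured array. With the mean of all kept probes of a gene, 58 called genes reversed direction, and 20 of these were called in the opposite direction. Of the named genes, Lyz2 (-0.34, adjusted p = 0.113) and C1qb (-0.17, adjusted p = 0.340) were not called with values floored at 16, nor Esam (0.24, adjusted p = 0.0664) without overexpression 12 h replicate 1, and none changed sign. Signal over background limits dim genes, and 2 of the 3 overexpression groups were 1 array.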
